A study of Mus musculus with 8 samples.

Results

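Dual-TRA cells come from preparations of mouse CD8+ T cells. In each such cell, single-cell T cell receptor (TCR) sequencing found 2 TCRα (TRA) chains and a single TCRβ (TRB) chain. Dual-TRA cells were taken as the barcodes that carried no multiplet mark, a primary TRA chain, a secondary TRA chain and a TRB chain, and no secondary TRB chain. This rule found 9788 cells among 253531 barcodes, of which 66914 had both chains and no multiplet mark. They were compared with 42850 single-TRA cells, which had 1 TRA and 1 TRB chain. The libraries were made with the Parse Evercode TCR kit from CD8+ T cells of thymus, spleen and tumor, in 8 multiplexed sublibraries that each held cells of all 14 tables. The tables cover 7 animals, each with a thymus. The second tissue was the spleen for mouse-155A and also for mouse-155C. It was a tumor for the other 5 animals, which were mouse-160A, mouse-164B, mouse-160B, mouse-164C and mouse-160C. Animal and tissue were read from the names of the tables. The study used Pdcd1fl/fl mice and Pdcd1 cKO mice, in which a Cre driven by the CD8 E8I enhancer deletes the gene of the inhibitory receptor PD-1, at baseline or bearing B16-OVA or B16-F10 melanomas. The labels give neither genotype, age nor tumor model per animal, so animals were not grouped by them. Thymic and splenic cells were isolated with CD8a+ kits, and tumor cells with CD8 microbeads after digestion. The p-values below measure the spread between these 7 animals.

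A TCR is a pair of an α and a β chain. A thymocyte joins its TRB genes early, and a productive TRB joint halts further joining on the other TRB allele. TRA genes are joined later and on both alleles, and a cell may replace an earlier TRA joint by joining a more upstream TRAV gene to a more downstream TRAJ gene until its receptor is positively selected. A mature T cell can carry a joint on each TRA allele. In the GRCm39 build the annotation places 130 TRAV genes at chr14:52665385-54215135 and 60 TRAJ genes at chr14:54392462-54456299, all read below in their order from the TRAV-proximal end (order 1). The enzyme that joins them cuts at recombination signals, which in TRAV genes are a heptamer, a 23-base spacer and a nonamer just behind the coding end.

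Depth was shallow. The median dual-TRA cell held 3 to 6 TRA transcripts per table, and the median single-TRA cell held 1 to 3, a difference that the rule itself sets because a secondary chain adds transcripts. The rule asks both groups for a TRB chain and no secondary TRB chain, and uses TRB transcripts in no other way. The median of TRB transcripts was 2 to 3 in dual-TRA cells and 2 to 3 in single-TRA cells of the 7 thymus tables (mean difference of medians 0.286, exact two-sided sign-flip permutation test over 7 animals, p = 0.50). In tumors the medians were 2 to 6 in dual-TRA cells and 2 to 4 in single-TRA cells. The share of dual-TRA cells was 17.7% to 19.3% across the 8 sublibraries. No barcode occurred in more than 1 table. None of the dual-TRA cells carried a TRG, TRD or immunoglobulin gene call, and the TRAV1-TRAJ33 chain of mucosal-associated invariant T cells occurred in 0 primary chains and 1 secondary chain.

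The label was first checked against the sequences of the chains. A complete TRA CDR3 runs from a cysteine of the TRAV gene to a phenylalanine or tryptophan of the TRAJ gene. Of the 9788 cells, 6073 (62.0%) had 2 complete TRA chains that differed in the TRAJ gene, in CDR3 length or by more than 1 residue. In 1856 cells (19.0%) the secondary CDR3 was a stretch of the germline TRA locus with no joint in it. In 990 cells (10.1%) the secondary chain had the TRAJ gene and CDR3 length of the primary chain and at most 1 different residue. A further 404 cells (4.13%) had an otherwise incomplete secondary chain, and 465 (4.75%) a complete secondary chain beside an incomplete primary chain. These classes were set after the sequences were seen, so no test was run on their shares.

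The germline class read from a TRAV gene straight into its recombination signal. Some of its CDR3 sequences, among them the most frequent, are shown because they make this class visible. Each line starts at the cysteine codon on the plus strand of GRCm39 and continues through the signal, with the heptamer and the nonamer in capitals. The bases up to the heptamer lie in the last exon of the TRAV gene, and the bases from the heptamer on lie in the intergenic DNA behind it.
TRAV3-3, chr14:53903951-53904002, CDR3 read as CAVSAQCSPGT: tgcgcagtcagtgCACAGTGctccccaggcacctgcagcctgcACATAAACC
TRAV14-2, chr14:53878670-53878721, CDR3 read as CAASAQCSPGT: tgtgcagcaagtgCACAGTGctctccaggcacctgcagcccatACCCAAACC
TRAV8-2, chr14:53976283-53976334, germline CDR3: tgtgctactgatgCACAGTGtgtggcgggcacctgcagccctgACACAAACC
TRAV9-2, chr14:53828959-53829010, CDR3 read as CVLSAQCVGL: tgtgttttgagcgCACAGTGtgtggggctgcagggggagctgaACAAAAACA
TRAV7-4, chr14:53699179-53699234, germline CDR3: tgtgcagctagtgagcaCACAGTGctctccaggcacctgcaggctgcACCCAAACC

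The CDR3 CAVSAQCSPGT was the secondary chain of 824 cells with 702 different TRB chains, and CAASAQCSPGT that of 615 cells with 612 different TRB chains. Both occurred in all 14 tables. These 2 sequences made up 1439 of the 1856 germline chains. CAVSAQCSPGT lies in 3 and CAASAQCSPGT in 6 TRAV genes of the annotation, so the CDR3 does not name 1 gene. Cells were counted by amino acid CDR3, which several genes can share. The CDR3 shown from TRAV8-2 was the secondary chain of 134 cells, and TRAV8N-2 holds the same bases while TRAV8D-2 encodes the same residues with other bases. CVLSAQCVGL was found in TRAV9-2 and was the secondary chain of 65 cells. The CDR3 shown from TRAV7-4, which TRAV7D-4 also holds, was that of 23 cells. The TRAJ call of these chains rested on few bases: the J match was 8 bases long in the median germline chain and 58 bases in the median complete chain. Among all annotated TRA chains, 13091 of 157654 had an incomplete CDR3, and 10792 of these (82.4%) equalled the germline locus. Of the complete chains, 6 of 65354 distinct complete CDR3 nucleotide sequences were found unbroken in the locus. From the CDR3 start to the end of the read sequence, 5359 of the germline chains (49.7%) matched the locus without a break, over a median of 169 bases. The heptamer letters CACAGTG are common behind TRAV genes, and 104 of 130 (80%) held them, on the coding strand, between 20 bases before and 40 bases after the annotated end.

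Germline chains made up 25.1% to 32.4% of the secondary chains in the 7 thymus tables, 14% and 19.7% in the 2 spleen tables and 7.01% to 29.9% in the 5 tumor tables. They were less frequent among the chains of single-TRA cells, at 1.86% to 8.07% per table. As secondary chains they had few transcripts: 91.1% were seen with a single transcript, against 62.8% of the secondary chains in complete and distinct pairs. Near copies were single-transcript chains in 94.9% of cells, and 719 of 733 with both chains annotated (98.1%) differed from the primary chain by 1 base.

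**Figure D1:**
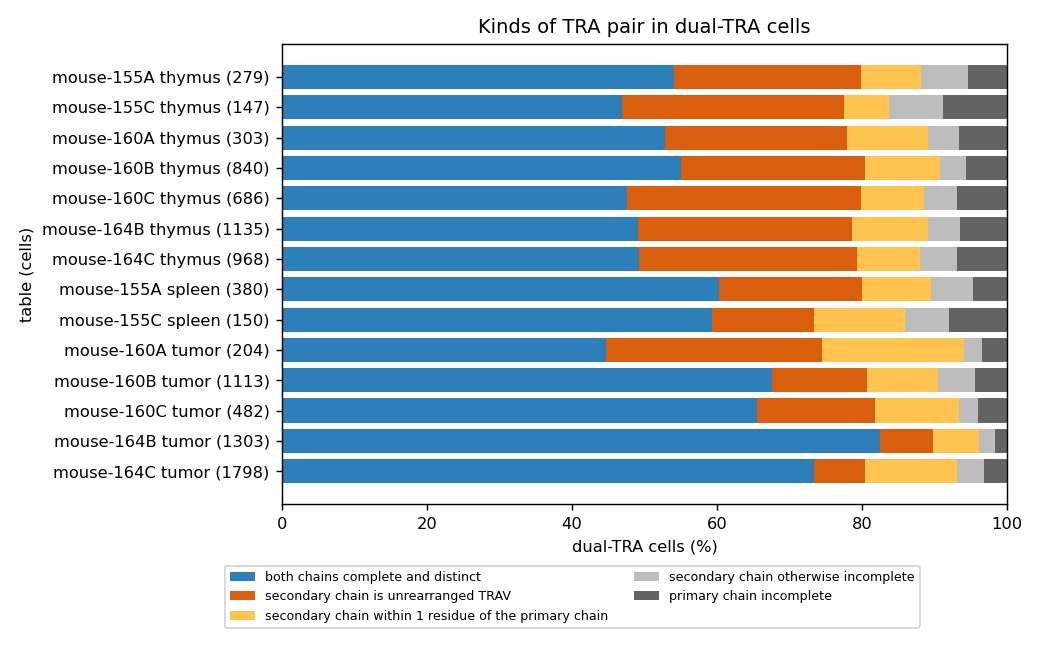
Kinds of TRA pair among dual-TRA cells. Each bar is a table, with its number of dual-TRA cells in parentheses, and the colored segments give the percentage of those cells in each of the 5 classes. Complete and distinct pairs are 46.9% to 55.0% in the thymus tables and reach 82.4% in the mouse-164B tumor.

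The share of dual-TRA cells among dual-TRA and single-TRA cells asked whether cells with 2 TRA chains were more or less frequent outside the thymus. The thymus values were lowest in mouse-155C (13.7%) and mouse-155A (15.5%), followed by mouse-160A (16.7%), mouse-160B (17.8%), mouse-164B (18.3%), mouse-160C (19.0%) and mouse-164C (19.8%). The spleen of mouse-155A held 13.02% and that of mouse-155C 12.3%. Among tumors it was 15.8% for mouse-160A, 17.8% for mouse-160C, 17.9% for mouse-160B and 18.5% for mouse-164C, and 29.1% (95% exact interval 27.8 to 30.5) for mouse-164B. The mouse-164B tumor stood above every other table, and the other tumors overlapped the thymus range. The second tissue minus the thymus of the same animal was 0.50 percentage points on average and negative in 5 of 7 animals (exact two-sided sign-flip permutation test, p = 0.98, adjusted p = 1.0).

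With only complete and distinct pairs counted, the share was 6.95% to 10.4% in the thymus, 7.61% and 8.10% in the spleen, and in tumors 7.17% (mouse-160A), 12.2% (mouse-160C), 12.5% (mouse-160B), 13.9% (mouse-164C) and 24.4% (mouse-164B). Every tumor but that of mouse-160A lay above the whole thymus range. In the mouse-160A tumor the median TRB transcripts were 2 in complete and distinct dual-TRA cells and 5 in single-TRA cells. The order was reversed in the tumors of mouse-160C (5 and 3), mouse-164B (4 and 2) and mouse-160B (3 and 2). Both medians were 2 in the mouse-164C tumor. The part of these depth gaps in the shares was not tested. The mean difference of second tissue and thymus was 3.01 percentage points, positive in 5 of 7 animals (exact permutation test, p = 0.14, adjusted p = 0.34). In the mouse-164B tumor the TRB chain with the most dual-TRA cells was found in 821 cells. Without them the share there was 16.2% for all pairs and 10.2% for complete and distinct pairs. The mean difference over animals then became -1.34 percentage points for all pairs and 0.99 for complete and distinct pairs. This chain was picked after seeing the data, by its number of dual-TRA cells in 1 animal, so these values are descriptions and no test is given.

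Because a secondary chain can be seen only with enough TRA transcripts, shares were also compared at an equal depth. Each cell was thinned to 4 TRA transcripts, and the share expected to show both chains was computed exactly. This kept 15075 of 52638 cells: 17334 thymus, 3550 spleen and 16679 tumor cells held fewer transcripts and were left out. The minimum counts transcripts of both TRA chains, so a secondary chain helps its own cell to pass. In the thymus 2465 of 4358 dual-TRA cells passed, and 6753 of 24087 dual-TRA and single-TRA cells together. The thinned share therefore describes the cells that passed and cannot be read as a share of all cells. The thinned share was 28.3% to 33.5% in the thymus, 32.0% and 33.1% in the spleen and 16.0% to 48.6% in tumors. For complete and distinct pairs it was 17.0% to 21.6% in the thymus, 25.7% and 25.5% in the spleen, and in tumors 7.85% (mouse-160A), 15.9% (mouse-160C), 22.6% (mouse-160B), 23.6% (mouse-164C) and 44.4% (mouse-164B). Neither difference from the thymus passed the exact permutation test (p = 0.84 for all pairs and p = 0.41 for complete and distinct pairs). Tumor values lay on both sides of the thymus range. Without the 821 cells above, the thinned share of all pairs in the mouse-164B tumor was 25.1%, and the mean difference over animals was -4.15 percentage points. Intervals on shares cover counting error only.

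**Figure D2:**
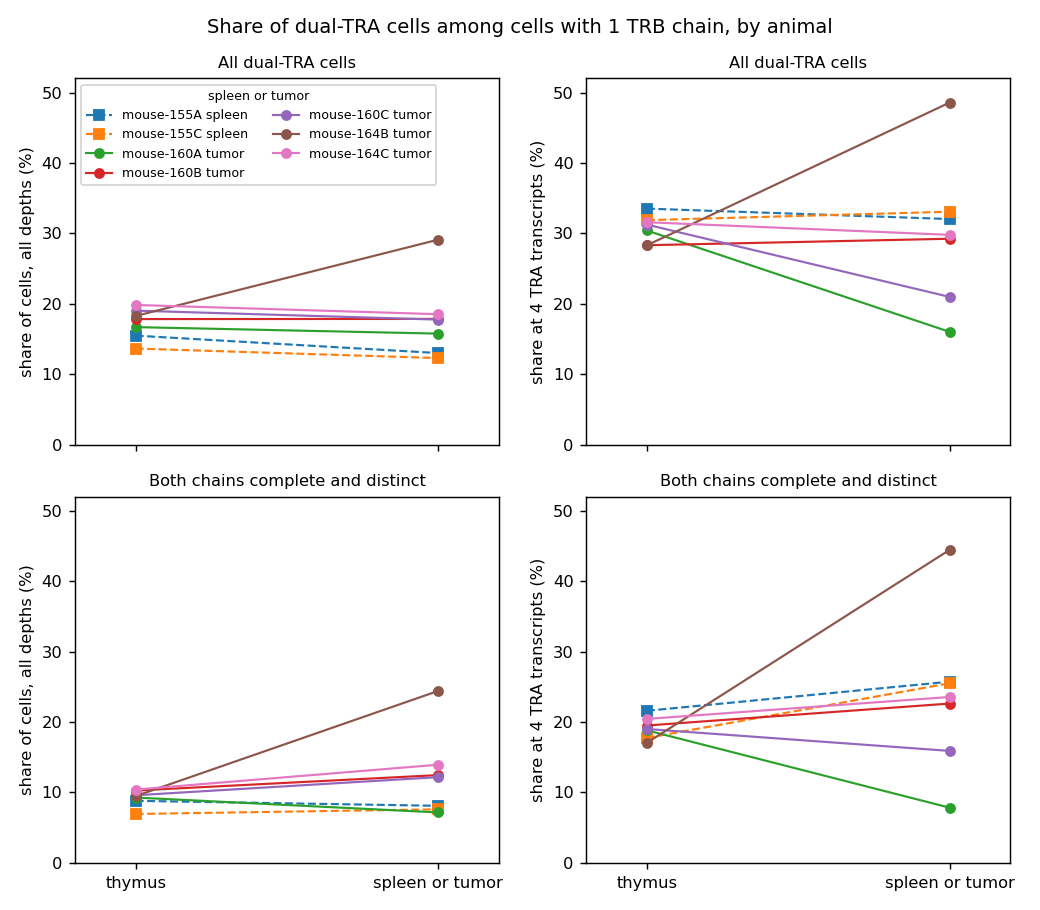
Share of dual-TRA cells among cells with 1 TRB chain. Lines join the thymus and the second tissue of an animal (circles and solid lines, tumor; squares and dashed lines, spleen), for all pairs (top) and complete, distinct pairs (bottom), at all depths (left) and thinned to 4 TRA transcripts (right). The line of mouse-164B rises most in each panel, from 18.3% to 29.1% at top left, and that of mouse-160A falls in each.

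The transcripts of the 2 TRA chains were then compared within cells that held at least 4 TRA transcripts. The secondary chain supplied a median of 25% of the TRA transcripts in each of the 7 thymus tables and both spleen tables, 16.7% in the mouse-160A tumor, 33.3% in the mouse-164B tumor and 25% in the other tumors. A primary chain has by definition at least as many transcripts as the secondary chain, so this share cannot exceed 50%. The rule also asks for at least 1 secondary transcript, and 1 of the minimum of 4 is 25%. Among all dual-TRA cells, 75.5% to 84.2% of thymic and 82.7% to 83.9% of splenic secondary chains had exactly 1 transcript. These medians are therefore set in part by the rule and the minimum. The tissues did not differ beyond the spread between animals (exact permutation test, p = 1.0). For complete and distinct pairs the median was 25% to 33.3% in the thymus and 22.2% to 33.3% in tumors. The second tissue did not differ from the thymus by the test here either (mean difference 0.488 percentage points, exact permutation test, p = 0.88). The difference was -1.67 and -4.05 points in the spleens and -2.78 to 8.33 points in the tumors. Spleens and tumors were not tested apart. The medians of complete and distinct pairs used 3853 cells, and 2259 such pairs had a secondary chain of 2 or more transcripts.

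The TRAJ genes of the 2 chains lay close to each other on the locus. In complete and distinct pairs of the thymus, counted once per TRB and TRA combination (2186 combinations), the 2 chains of a cell lay 8.70 to 11.2 TRAJ genes apart on average, against 14.7 to 16.5 genes for a primary and a secondary chain of different cells of the same table. The difference of within-cell and between-cell distance was -4.52 to -6.37 genes in the 7 animals, with a mean of -5.32, and was below 0 in 7 of 7. The exact two-sided sign-flip permutation test gave p = 0.0156, the smallest that 7 animals allow, and an adjusted p of 0.053 over the 17 tests of the family. With all dual-TRA pairs it was -5.20 genes (-4.42 to -5.88, exact permutation test, p = 0.0156, adjusted p = 0.044). Near copies are among these pairs and share the TRAJ gene by definition, so part of this value was set in advance. With near copies left out it was -4.17 genes (exact permutation test, p = 0.0156). In bases, the 2 chains of a cell lay 9.12 to 11.9 kb apart, against 15.5 to 17.4 kb between cells. The same TRAJ gene was used by both chains in 7.25% to 10.6% of pairs, against 2.90% to 3.66% between cells.

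The pattern ran through the whole TRAJ cluster. Of 430 thymic pairs whose primary chain used one of the 20 most TRAV-proximal genes (TRAJ61 to TRAJ42), 53.3% also had a secondary chain there (95% exact interval 48.4 to 58.1) and 8.84% had one among the 20 most distal genes (TRAJ21 to TRAJ1). Of 699 pairs with a distal primary chain, 47.9% had a distal and 9.87% a proximal secondary chain. A proximal secondary chain was more frequent beside a proximal than beside a distal primary chain in all 7 thymus tables, at 41.2% to 75.0% against 3.85% to 14.02%. Across pairs, the Spearman coefficient of the TRAJ order of both chains was 0.39 to 0.64 in the thymus, 0.55 and 0.61 in the spleen, and -0.12 in mouse-160A (67 pairs) and 0.26 to 0.34 in the other tumors. Pairs are not independent replicates, and the difference between tissues was not tested.

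**Figure D3:**
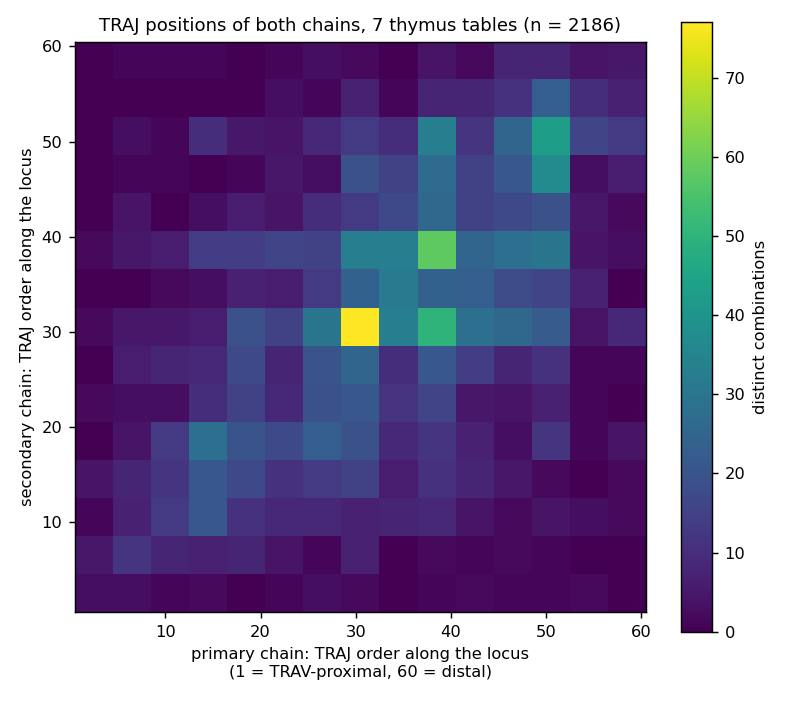
TRAJ order of the primary chain (horizontal) and the secondary chain (vertical) of 2186 complete, distinct pairs from the 7 thymus tables, in squares of 4 by 4 genes. Color gives the number of pairs. The fullest squares lie along the diagonal. Of the 430 pairs with a proximal primary chain, 38 have a distal secondary chain.

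The coefficient was higher in thymic pairs whose secondary chain had more transcripts. It was 0.41 with 1 transcript of the secondary chain (1449 pairs), 0.51 with 2 transcripts (421), 0.62 with 3 (168) and 0.69 with 4 or more (148). In tumor pairs the same steps were 0.24 (1799 pairs), 0.33 (380), 0.40 (101) and 0.54 (125). Spleen pairs, of which there were fewer, did not rise at each step, with 0.53 (235 pairs), 0.67 (58), 0.43 (18) and 0.81 (6). These values are descriptions across pairs. The mean within-cell minus between-cell distance in the thymus remained below 0 when the secondary chain had at least 2 transcripts, when pairs with the same TRAJ gene were left out and when secondary chains also found in other cells were left out (exact permutation test, p = 0.0156 in each). Barcodes with 2 chains of both kinds were compared within the same tables. Unmarked barcodes with 2 TRA and 2 TRB chains had thymic coefficients of 0.084 to 0.33, and those marked as multiplets 0.0061 to 0.17. Barcodes marked as multiplets but with 1 TRB chain had 0.19 to 0.61. The part of cell doublets in the dual-TRA cells was not tested.

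**Figure D4:**
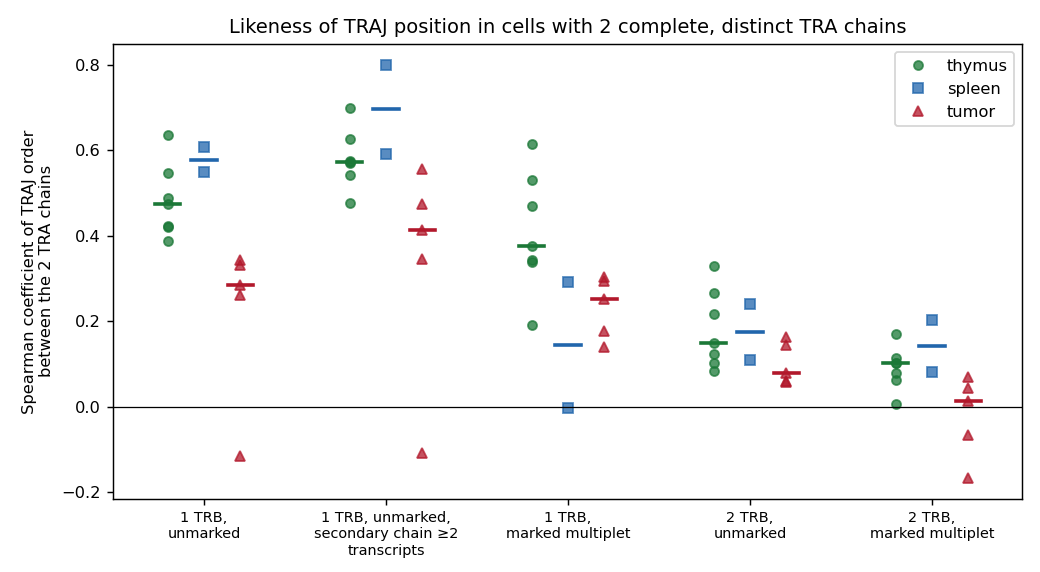
Spearman coefficient of TRAJ order between the 2 complete, distinct TRA chains of a barcode. Each point is a table (circles, thymus; squares, spleen; triangles, tumor) and each short line the median of a tissue. Thymic values are 0.39 to 0.64 for unmarked cells with 1 TRB chain and 0.0061 to 0.17 for marked multiplets with 2 TRB chains.

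The TRAV genes of the 2 chains also lay nearer to each other than those of different cells. In complete and distinct thymic pairs the 2 TRAV genes lay 33.9 to 37.1 genes apart within a cell and 39.5 to 42.1 between cells. The difference was -3.98 to -5.97 genes and below 0 in 7 of 7 animals (mean -5.00, exact permutation test, p = 0.0156, adjusted p = 0.053). The Spearman coefficient of TRAV order was 0.17 to 0.25 in the thymus. With all dual-TRA pairs the difference was -12.1 genes (p = 0.0156 by the exact permutation test). It was -34.9 genes when only TRAV genes without D or N copies were used (exact permutation test, p = 0.0156). Only 18 TRAV genes of the annotation have no such copies. Near copies and germline chains were kept in both of these values. The single-copy setting was not run for complete and distinct pairs, and what changed the size was not tested. TRAV genes have near-identical D and N copies in this locus, so the place of a TRAV call is less certain than that of a TRAJ call.

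Positions along the locus were next set against those of single-TRA cells. The secondary chains of thymic complete and distinct pairs used TRAV genes that lay 1.59 to 4.41 places further from the TRAJ cluster on average (mean difference -2.82 places, below 0 in 7 of 7 animals, exact permutation test, p = 0.0156, adjusted p = 0.053). With all dual-TRA pairs the difference was -4.87 places (exact permutation test, p = 0.0156). It was -12.8 places and no longer passed the test when only TRAV genes without D or N copies were used (exact permutation test, p = 0.16). TRAV11 (order 94) took a median of 3.75% of secondary chains of complete and distinct pairs and 9.94% of single-TRA chains. TRAV positions were not rerun without TRAV11-TRAJ18 cells, so the part of these cells in the shift was not tested. Primary chains of the complete and distinct pairs lay 2.80 places lower, in 6 of 7 animals (exact permutation test, p = 0.047, adjusted p = 0.13). TRAJ genes showed no shift that passed the test in the thymus, with a mean difference of 0.28 places for primary and -1.04 places for secondary chains (exact permutation test, p = 0.20 and p = 0.19). In the spleen and tumors no TRAV or TRAJ position of complete and distinct pairs passed the test (p = 0.58 to 0.94, exact permutation tests).

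Gene usage was compared per gene, and a gene was called when its share among secondary chains differed from its share among single-TRA cells in the same direction in all 7 thymus tables. With all pairs, 3 of 40 TRAJ genes tested (7.5%) were called higher and 6 (15%) lower, and 4 of 47 TRAV genes (8.51%) were called higher and 4 (8.51%) lower. TRAJ28 was the call carried by the germline chains CAVSAQCSPGT and CAASAQCSPGT, and TRAJ5 that of the TRAV9 germline chains. TRAJ28 took a median of 23.6% of secondary chains against 4.89% of single-TRA chains, TRAJ5 took 4.06% against 1.67%, and TRAJ2 2.08% against 0.52%. TRAV3-1 took 10.1% against 6.17%, TRAV14D-1 7.44% against 4.85%, TRAV3-3 6.71% against 3.62% and TRAV14-1 6.27% against 2.17%. Germline chains carried such names too. CAVSAQCSPGT lies in TRAV3-3, TRAV3D-3 and TRAV3N-3 but was called TRAV3-1 in some recurrent combinations. CAASAQCSPGT lies in TRAV14D-1 and TRAV14-1 among others. None of these 4 TRAV genes was called higher among complete and distinct pairs. The part of germline chains in each TRAV share was not tested.

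With complete and distinct pairs no TRAJ gene (0 of 40, 0%) was called higher and 1 (2.5%) lower, and 2 TRAV genes (4.26%) were called higher and 6 (12.8%) lower. TRAJ18 and TRAV11 had the largest negative differences. Together they form the invariant chain of natural killer T (iNKT) cells, which recognize lipids on CD1d. TRAJ18 took 2.16% to 4.92% of secondary chains and 7.60% to 14.1% of single-TRA chains, and the groups did not overlap. TRAV11 took 1.45% to 5.03% and 6.52% to 12.997%. TRAV5-4 (1.84% against 3.04%, medians), TRAV9D-3 (2.10% against 3.15%) and TRAV9-2 (1.68% against 2.37%) were also lower. TRAV15D-1-DV6D-1 (1.98% against 1.08%) and TRAV4-3 (1.79% against 1.25%) were higher. Apart from TRAV11, the most used genes of secondary chains did not differ by this rule. Here TRAJ22 took 7.55% against 8.49%, TRAJ31 5.396% against 3.69% and TRAJ23 4.35% against 3.86%. For TRAJ30 it was 3.97% against 4.56% and for TRAJ9 3.56% against 3.04%. The TRAV genes among them were TRAV12-1 (8.61% against 8.53%), TRAV3-1 (5.62% against 5.13%), TRAV6-6 (5.21% against 4.48%) and TRAV16N (3.98% against 2.37%).

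iNKT-like cells, here cells with a TRAV11 or TRAV11D and TRAJ18 chain as primary or secondary chain, carried a secondary chain less often than other cells of the thymus. There, 175 of 2056 such cells were dual-TRA cells. The share was 5.62% for mouse-155A, 6.19% for mouse-155C, 7.63% for mouse-164B, 7.73% for mouse-160A, 7.91% for mouse-160C, 8.44% for mouse-160B and 11.9% for mouse-164C, against 14.4% to 20.6% of the other cells. The values did not overlap, and the mean difference was -10.2 percentage points (exact permutation test, p = 0.0156, adjusted p = 0.044). For complete and distinct pairs it was 3.12% to 7.71% against 7.36% to 10.8%, a mean difference of -4.31 points that was negative in 7 of 7 animals (exact permutation test, p = 0.0156, adjusted p = 0.053). Thinned to 4 TRA transcripts, the difference for these pairs was -5.53 points (exact permutation test, p = 0.031), over 13 to 145 iNKT-like cells per table, and negative in 6 of 7 animals. The minimum of 4 again counts the transcripts of the secondary chain. In mouse-164C the thinned values were 20.9% in iNKT-like and 20.4% in other cells. The median iNKT-like cell had 2 TRA transcripts in every thymus table and 1 to 2 TRB transcripts, against 2 to 3 TRB transcripts in the other cells. Outside the thymus at most 19 iNKT-like cells were found per table, and no test was made. With all pairs, dual-TRA cells were 4 of 12 (33.3%, against 12.1% of other cells) in the mouse-155C spleen. They were 3 of 10 (30%, against 17.8%) in the mouse-160B tumor and 6 of 19 (31.6%, against 18.5%) in the mouse-164C tumor. All 3 lay above the share of other cells. In the mouse-155A spleen and the tumors of mouse-160C and mouse-164B the share lay below that of other cells, over 6 to 8 iNKT-like cells. For complete and distinct pairs the share was 8.33% against 7.60% in the mouse-155C spleen and 12.5% against 8.09% in the mouse-155A spleen. It was 25% against 24.4% in the mouse-164B tumor and 0% against 12.2% in the mouse-160C tumor. In the tumors of mouse-160B and mouse-164C it stayed above that of other cells.

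Secondary chains were then looked up in other cells of the same table. In the thymus, 26.4% to 36.4% of all secondary chains were the TRA chain (same V, J and CDR3) of a single-TRA cell with another TRB chain, against 9.32% to 17.6% of primary chains (mean difference 18.1 percentage points, exact permutation test, p = 0.0156, adjusted p = 0.044). With complete and distinct pairs the shares were 5.80% to 12.7% and 5.96% to 13.9%, and the mean difference was -1.31 points (exact permutation test, p = 0.17). In tumors the share for complete and distinct pairs was 22.2% to 76.1% of secondary and 23.4% to 76.2% of primary chains.

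Dual-TRA cells with the same TRB chain carried the same pair of TRA chains in most cases. Across tables, 140 TRB chains were found in at least 2 complete and distinct dual-TRA cells, and 256922 of 266332 cell pairs within them (96.5%) shared both TRA chains. Most of these pairs came from the mouse-164B tumor, with 246412 of 250790 (98.3%). The other tables varied: 88.2% in the mouse-160B tumor, 94.6% in the mouse-160C tumor, 96.4% in the mouse-160B thymus, 33.1% in the mouse-164C tumor and 23.7% in the mouse-160A tumor. In the other 6 thymus tables at most 4 TRB chains recurred. Of 4898 complete and distinct combinations, 1 occurred in more than 1 animal, in 2 cells.

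Some of the most frequent combinations are given with their CDR3 sequences, because both joints recurred together in many cells. Bases that match the TRAV and the TRAJ gene are in lower case, and bases of neither are in capitals.
mouse-164B tumor, TRAV3-3 and TRAJ33, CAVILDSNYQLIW: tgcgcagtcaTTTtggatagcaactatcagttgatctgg
mouse-164B tumor, TRAV12-1 and TRAJ45, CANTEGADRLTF: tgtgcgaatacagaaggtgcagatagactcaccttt
mouse-160C tumor, TRAV2 and TRAJ27, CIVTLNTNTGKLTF: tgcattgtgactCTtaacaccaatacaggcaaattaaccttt
mouse-160C tumor, TRAV9D-3 and TRAJ31, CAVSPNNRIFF: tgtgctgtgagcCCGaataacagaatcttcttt
mouse-164C tumor, TRAV8N-2 and TRAJ31, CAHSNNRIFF: tgtgctCatagcaataacagaatcttcttt
mouse-164C tumor, TRAV10 and TRAJ32: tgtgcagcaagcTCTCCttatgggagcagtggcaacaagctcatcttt
mouse-160B thymus, TRAV8-1 and TRAJ12: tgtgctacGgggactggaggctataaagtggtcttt
mouse-160B thymus, TRAV10 and TRAJ23, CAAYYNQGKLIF: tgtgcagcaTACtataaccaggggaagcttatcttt

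The mouse-164B pair stood with the TRB chain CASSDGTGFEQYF in 702 dual-TRA cells. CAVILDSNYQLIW had 3817 transcripts and was the primary chain of 433 cells, and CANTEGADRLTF had 2765 transcripts and was the primary chain of 269. The less abundant chain gave 42.0% of the TRA transcripts of these 702 cells, and 40.3% to 45.0% in the 8 sublibraries. Single-TRA cells with the same TRB chain held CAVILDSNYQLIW in 74 cells, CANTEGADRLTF in 32 and neither in 5.

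The mouse-160C pair stood with the TRB chain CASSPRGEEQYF in 113 dual-TRA cells. Its less abundant chain, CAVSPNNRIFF, gave 33.7% of the TRA transcripts of these 113 cells. There were 22 single-TRA cells with only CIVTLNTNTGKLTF and 11 with only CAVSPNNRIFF. The mouse-164C pair, with the TRB chain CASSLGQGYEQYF, was found in 58 dual-TRA cells, with 41.7% of their TRA transcripts from the TRAV10 chain. Its bases were annotated in 18 of these cells. The mouse-160B thymus pair, with the TRB chain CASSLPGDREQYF, was found in 15 thymic cells and in 5 cells of the tumor of the same animal. Its bases were annotated in 14 of the thymic cells. Thymus tables held no other complete and distinct combination with at least 3 dual-TRA cells.

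Near copies and germline chains recurred too. In the mouse-164C tumor the less abundant partner of a TRAV12-1 and TRAJ56 chain differed from it by the substitution A10G, counted from the first base of the CDR3, and is shown with the changed base in capitals.
Leading chain: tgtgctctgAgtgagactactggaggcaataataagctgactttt
Other chain: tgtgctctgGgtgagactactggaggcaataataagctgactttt

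This pair occurred in 101 dual-TRA cells by amino acid CDR3. The other chain gave 16.0% of the TRA transcripts of these 101 cells, and the bases were annotated in 20 of them. With the same TRB chain, 400 single-TRA cells held the leading chain and 3 the other chain. The germline chain CAVSAQCSPGT stood beside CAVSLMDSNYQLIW in 37 cells of the mouse-160A tumor and gave 18.2% of the TRA transcripts of these 37 cells. It was alone with that TRB chain in 2 cells, against 67 with the leading chain. In all, 41 complete and distinct combinations were found in at least 3 dual-TRA cells of a table, with 1176 dual-TRA cells, and in 12 of them each chain was also found alone with the TRB chain. Another 16 recurrent combinations held a germline chain and 16 a near copy.

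**Figure D5:**
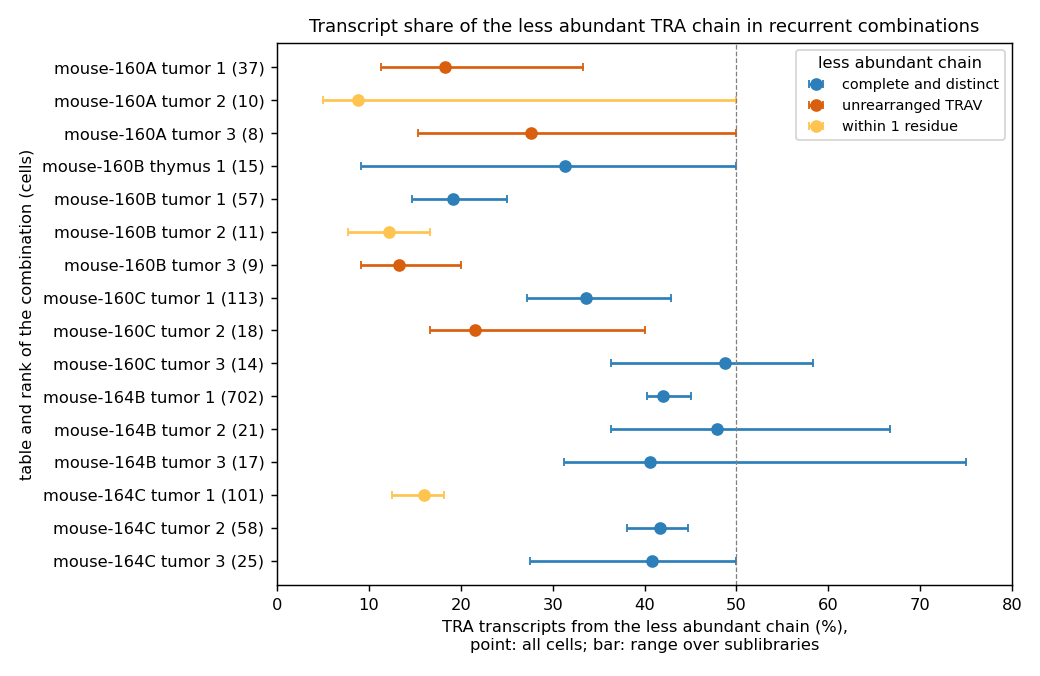
TRA transcripts that came from the less abundant chain in the most frequent combinations (1 for the mouse-160B thymus, up to 3 per tumor), named by table and rank with the number of dual-TRA cells. Points give all dual-TRA cells of a combination, bars the lowest and highest sublibrary, and color the kind of the less abundant chain. Complete, distinct pairs are at 19.1% to 48.8%, germline chains at 13.2% to 27.6% and near copies at 8.80% to 16.0%.

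Cells with 2 TRB chains and 1 TRA chain numbered 9590. Their share among cells with 1 TRA chain was 12.9% to 17.8% in the thymus, 10.5% and 10.7% in the spleen and 20.2% to 24.0% in tumors. With TRB near copies left out it was 10.2% to 14.9% in the thymus, and complete and distinct dual-TRA cells were 6.95% to 10.4% of their own denominator. The denominators and the checks on the chains differ, so no test was made.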

How the data were processed

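Single-cell TCR libraries of mouse CD8+ T cells (8 sublibraries, 14 tables) were analysed. The authors assembled and annotated chains with the Parse Biosciences analysis pipeline. GRCm39 is the build named in the submitters' processing notes, and no pipeline version is stated by them. Barcode tables as deposited hold raw read counts and transcript counts per chain, not normalized, with a multiplet mark. Doublets were treated as that mark gives them. The deposited annotation tables give CDR3 nucleotide sequences. In 3 tables they cover both chains of only 93.2%, 40.4% and 29.6% of dual-TRA cells.

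The members and the lists were chosen with earlier results of these data known. Gene order was taken from GENCODE M39 (GRCm39), and all 84 TRAV and 45 TRAJ names matched after removal of copy suffixes. A germline chain has an incomplete CDR3 of at least 20 bases found unbroken in the TRA locus. Cells were assigned to it by the amino acid CDR3. Complete and distinct pairs, and the classes, were chosen after seeing the data. Positions and gene usage used each TRB and TRA combination once per table. Comparisons over the 7 animals used exact two-sided sign-flip permutation tests (128 sign patterns), a threshold of 0.05 and Benjamini-Hochberg adjustment over 17 tests. An exact interval is a 95% Clopper-Pearson interval. The threshold was applied to the exact p. Genes with a mean share of at least 0.5% in single-TRA cells were tested for usage. The 5 most used TRAJ and TRAV genes were named, with up to 4 called genes in each direction. Named combinations were the most frequent of each table with at least 3 cells, and the next 2 of each tumor. Alternatives varied the transcript minimum, near copies, thinning depth, denominator, chain set, and the animals and sublibraries left out. The deposited clonotype frequencies were not used. Statistics were tested on simulated data. Python 3.11.15, pandas 2.3.3, NumPy 2.4.6, SciPy 1.17.1 and Matplotlib 3.10.9 were used. Counts per cell were low, so a chain not seen is not shown to be absent.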

Additional observations from a re-analysis of the deposited data

Results flagged for a closer look

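The share of dual-TRA cells in the mouse-164B tumor, 29.1%, stood far from the other 4 tumors, which held 15.8% to 18.5%. The median transcript share of the secondary chain in complete and distinct pairs of the mouse-155C thymus, 33.3%, stood apart from the other 6 thymus tables, at 25% to 26.7%, and rested on 31 cells. In the mouse-160A tumor, TRAJ genes of complete and distinct pairs lay 1.70 genes further apart within than between cells, against -3.87 to -2.89 genes in the other 4 tumors, over 67 combinations. Among 28 groups looked at, 3 had such a value, and chance gives about 1 in 20.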

How the results depend on the processing

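Of 203 alternatives, 18 turned a direction, 12 lost and 5 gained the threshold, and 4 moved a count or an untested value. The TRAJ likeness of both chains kept its direction and its side of the threshold in all 24 alternatives run, at -5.40 to -5.05 genes with an animal or a sublibrary left out. Tissues were paired by animal throughout, and the labels give no replicate numbers.

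The difference in share between second tissue and thymus (0.50 percentage points) was -0.43 without TRAV11-TRAJ18 cells, -0.78 over all paired cells and -1.34 without the most frequent TRB chain of mouse-164B (chosen after seeing the data, by its dual-TRA cells), and ran from -1.22 (without mouse-164B) to 0.998 in the leave-one-out fits. The thinned difference (-0.79) was 3.54 with at least 2 transcripts of the secondary chain, 5.15 at 10 transcripts and 4.49 for complete and distinct pairs, and ran from -4.30 (without mouse-164B) to 1.47 (without mouse-160A). The difference in transcript share (0) ran from -1.39 to 1.39 without the same animals, and was 5.38 with read counts in place of transcripts (exact permutation p = 0.094), 1.96 with at least 10 TRA transcripts and -1.60 as a mean per combination. Medians of few transcripts take few values, and the main difference was exactly 0 in 5 of 7 animals. TRAV likeness (-12.1 genes) was -34.9 with single-copy TRAV genes, -7.99 with at least 2 transcripts and -5.00 for complete and distinct pairs.

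TRAJ positions changed direction under several settings. In the second tissue, the primary chain (0.49) moved to -0.33 with at least 2 transcripts, -0.79 per cell and -0.069 for complete and distinct pairs (0.14 to 0.844 with a unit left out). The secondary chain (0.964, exact permutation p = 0.047) moved to 1.21 with at least 2 transcripts and 0.759 without near copies, neither past the threshold, and to -0.66 per cell and -0.158 for complete and distinct pairs (0.729 to 1.197 with a unit left out). In the thymus, the primary chain was 1.24 and the secondary chain 1.38 without TRAV11-TRAJ18 cells, both past the threshold, and the secondary chain -1.04 for complete and distinct pairs. With a unit left out they ran from 0.181 to 0.626 and from 0.0576 to 0.742. TRAV positions were -2.22 (primary, second tissue) and -12.8 (secondary, thymus, no longer past the threshold) with single-copy TRAV genes, and -2.80 (primary, thymus, now past it) for complete and distinct pairs.

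Secondary minus primary chains found in other cells fell to -1.31 points for complete and distinct pairs. Same-pair recurrence (92.5%) was 99.7% with at least 2 transcripts, 96.5% for complete and distinct pairs and 95.2% by nucleotide sequence. TRAJ genes called went from 9 to 1 for complete and distinct pairs. Causes were not tested. Shallow cells limit all shares.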
